A study of Mus musculus with 1824 samples.

Results

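The Notch pathway genes described here are 10 members of the count table: the ligands *Dll1*, *Dll3*, *Dll4* and *Jag1*, the receptors *Notch1* and *Notch2*, the glycosyltransferase *Lfng* and the targets *Hes1*, *Hey1* and *Hey2*. They were chosen by symbol as named parts of the pathway, with earlier results of these data known, and all 10 were found among the 55487 genes of the table. Their RNA was followed across cell classes of the gastrulating and early organogenesis mouse embryo, mainly in nascent mesoderm and endothelium.

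Transcriptomes of 1824 single cells were made by Smart-seq2, a full-length method, from sorted cells of mouse chimaeras. The chimaeras were made by injecting *Tet* triple-knockout embryonic stem cells carrying an H2B-tdTomato reporter into C57BL/6J host blastocysts, and the labels give the strain as CD1, the strain of the recipient mothers. All wells, at both stages, therefore hold either knockout or host cells, and the labels do not say which. A class below can mix both genotypes, in a share that is not known. In the study's droplet-based data from such chimaeras, injected cells made no contribution to extraembryonic ectoderm. The labels describe a GpC methylase incubation before lysis for every cell, whereas the study's methods leave it out for some cells, and which ones cannot be told from the labels. Cells of 7.5 days of development (E7.5) filled 11 plates and cells of 8.5 days (E8.5) filled 8 plates. Animals are named for 4 of the E7.5 plates (embryos 1, 2, 4 and 5). No animal or sort gate is given for the rest, so outside those embryos the range over plates serves as the spread and no test was made.

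Notch receptors are read out by contact between neighbouring cells. A ligand of the Delta or Jagged families on one cell pulls on the receptor of the next, the receptor is cut, and its intracellular part joins the DNA-binding protein RBPJ to switch on targets such as the Hes and Hey repressors. In the embryo the pathway is known for the segmentation of the paraxial mesoderm, where *Dll1*, *Dll3* and *Lfng* act, and for arterial fate in the endothelium, where *Dll4* and *Notch1* act.

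Of the 1824 cells, 1634 held at least 100000 reads and passed the limits on mitochondrial and ribosomal reads. Median depth of passing cells ranged from 224956 to 1699479 reads per plate. Cells were placed in 16 classes by marker genes, none of which is a Notch gene: a cell belonged to the class with most markers, given at least 4 of its 6 markers at 10 CPM (reads of a gene per 1000000 reads) or more. Such a class is a range of marker counts rather than a cluster, and 52 nascent mesoderm cells and 25 endothelium cells sat at the minimum of 4 markers. Nascent mesoderm held 13.7% of the passing cells and endothelium 16.2%, while 25.95% reached no class or tied between classes (170 ties). Only 1 nascent mesoderm cell came from E8.5, whereas endothelium came from both stages, with 98 cells from E7.5 and the rest from E8.5.

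Both classes carried their own markers, which the rule of assignment requires, so these levels describe the classes and are no check of them. In nascent mesoderm the 6 markers stood at 122.2 CPM (*Lefty2*) or more, *Mesp1* at 334.3 CPM, and the endothelial list summed to 0.967 CPM. In endothelium the 6 markers ranged from 215.9 CPM (*Emcn*) to 833.5 CPM (*Esam*), and the nascent mesoderm list summed to 15.9 CPM. Markers of other classes were also present. In nascent mesoderm the epiblast list summed to 384.6 CPM (86.4 to 659.1 over plates), the caudal progenitor list to 345.1, the extraembryonic mesoderm list to 196.9 and the paraxial list to 126.4 CPM (48.9 to 357.7). In endothelium the blood progenitor list summed to 210.2 CPM (96.1 to 1106) and the definitive endoderm and axial list to 135.3 CPM. The part of these cells in the values below was not tested.

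To show the sequence beside these genes, the bases before the start of transcription were taken from RefSeq (build GRCm38.p6), where 8 of the 10 members had an entry. The targets *Hes1* and *Hey1* had none, so they were not searched for motifs. Shown 5′ to 3′ on the strand of the gene are the ligands *Dll1* and *Dll4*, the Delta genes known from presomitic mesoderm and from vessels, and the targets *Hey2* and *Lfng*, the 2 entries that held an RBPJ motif. Bases annotated as exons of the gene were left out.
*Dll1*, chr17:15376933-15377182, minus strand: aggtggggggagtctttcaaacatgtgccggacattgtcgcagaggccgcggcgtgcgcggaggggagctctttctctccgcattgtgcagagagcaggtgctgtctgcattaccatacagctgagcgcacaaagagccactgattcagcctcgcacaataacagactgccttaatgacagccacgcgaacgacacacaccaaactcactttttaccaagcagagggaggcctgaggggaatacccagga
*Dll4*, chr2:119325534-119325783, plus strand: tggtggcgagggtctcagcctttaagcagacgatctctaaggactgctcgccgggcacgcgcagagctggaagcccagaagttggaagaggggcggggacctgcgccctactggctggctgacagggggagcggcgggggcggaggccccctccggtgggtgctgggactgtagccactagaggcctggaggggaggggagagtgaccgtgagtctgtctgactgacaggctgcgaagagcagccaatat
*Hey2*, chr10:30842802-30843033, minus strand: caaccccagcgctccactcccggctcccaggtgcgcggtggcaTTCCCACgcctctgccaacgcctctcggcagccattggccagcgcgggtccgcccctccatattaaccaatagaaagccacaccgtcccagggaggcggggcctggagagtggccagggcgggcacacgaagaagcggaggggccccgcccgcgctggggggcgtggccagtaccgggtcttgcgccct
*Lfng*, chr5:140607091-140607319, plus strand: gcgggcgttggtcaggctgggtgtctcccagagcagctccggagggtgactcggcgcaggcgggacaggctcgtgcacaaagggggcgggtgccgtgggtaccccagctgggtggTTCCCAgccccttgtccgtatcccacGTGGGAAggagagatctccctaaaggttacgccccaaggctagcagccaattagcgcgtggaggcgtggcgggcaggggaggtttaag
Capitals mark matches on either strand to the RBPJ motif GTGGGAA or to its shorter core TGGGAA, which every full match contains. The full motif stood 1 time in *Hey2*, from base -207 relative to the RefSeq start, and 1 time in *Lfng*, from base -109, and *Lfng* held a further match to the core from base -135. Over all 32851 promoters of the same length, 5.42% held the full motif and 21.6% the core. A T-box motif (TCACACCT, in 1.12% of promoters) and an ETS motif (CCGGAA, in 12%) were found in 0 of the 8 members' 250 bases. The *Dll1* stretch overlaps an exon of a non-coding gene on the opposite strand, A930024N18Rik, and the first bases of the *Dll4* stretch overlap *Gm14207*, also on the opposite strand. These matches describe letters only.

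The ligands were first compared between classes (dot map of all classes). *Dll3* and *Dll1* were high in nascent mesoderm, *Dll4* was high in endothelium, and *Jag1* was spread over many classes. Pooling all reads of a class, *Dll4* stood at 114.9 CPM in endothelium (exact 95% Poisson interval 113.4 to 116.3) and at 0.324 CPM in nascent mesoderm (0.252 to 0.411). *Dll3* showed the opposite picture, with 144.9 CPM in nascent mesoderm (143.3 to 146.5) and 0.458 CPM in endothelium (0.372 to 0.559). Reads were amplified without molecular identifiers, so these intervals cover counting error only.

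**Figure D1:**
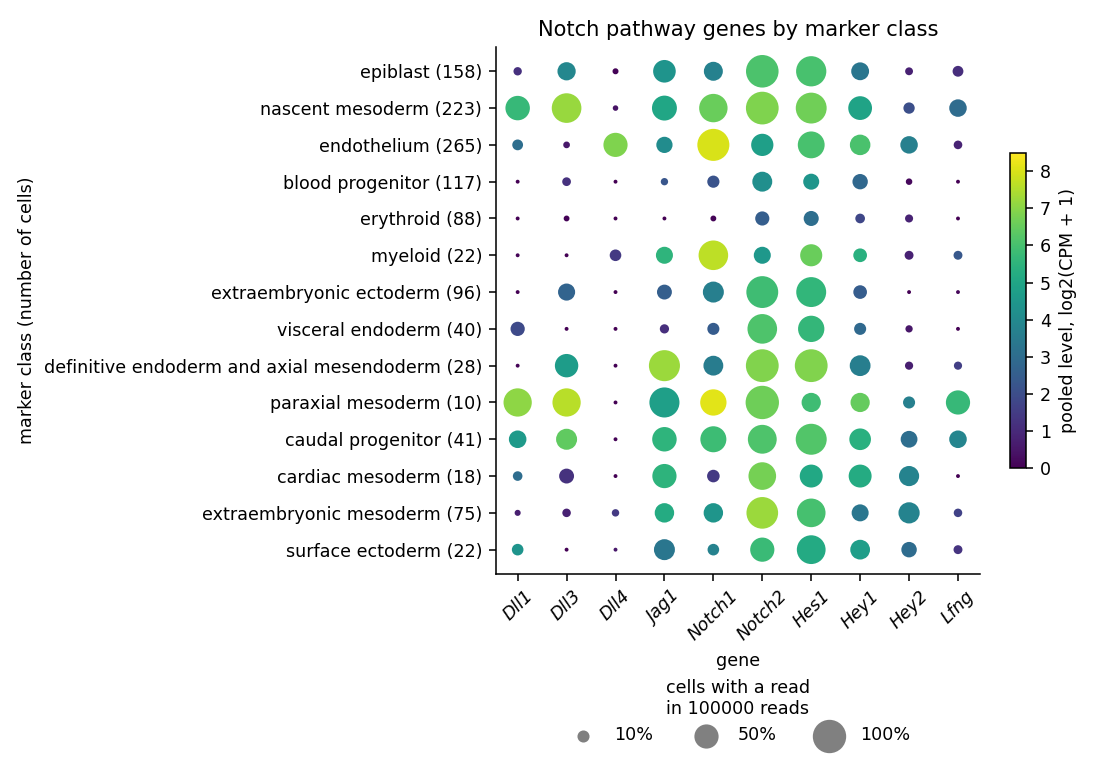
Level and detection of the 10 members in the 14 marker classes with at least 10 cells. Each row is a class with its number of cells, colour gives the pooled level as log2(CPM + 1) and dot area the percent of cells with a read after thinning each cell to 100000 reads. *Dll4* is bright in endothelium alone (114.9 CPM), while *Dll3* peaks in paraxial (190.4 CPM) and nascent mesoderm (144.9 CPM) and erythroid cells are dark throughout.

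*Dll4* (ENSMUSG00000027314, chr2:119325784-119335962, plus strand) encodes the ligand of arterial and sprouting endothelium. Over 7 endothelium plates with at least 5 cells, its level ran from 4.396 CPM through a median of 106.6 to 183.9 CPM, and over 9 nascent mesoderm plates from 0 through 0.257 to 1.00 CPM. The plates of the 2 classes did not overlap. The low endothelium value came from E8.5 plate 5, where the class had only 5 cells and the blood progenitor list summed to 1106 CPM, and the other 6 plates started at 58.6 CPM.

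Detection was compared after thinning each cell to 100000 reads. *Dll4* was then seen in 49.8% of endothelium cells (Clopper-Pearson interval 43.6 to 55.99) and in 0.897% of nascent mesoderm cells (0.109 to 3.20). At full depth the share in endothelium was 55.1%, so a cell without a read after thinning need not lack *Dll4*. Erythroid cells, in which the endothelial list summed to 23.2 CPM against 2339 CPM in endothelium, had it in 0 of 88 cells. By the bound of 3 counts this allows a share of up to 3.41%, and by the Clopper-Pearson interval up to 4.11%. The median depth of erythroid cells was 893319 reads against 643876 in endothelium. Of all cells with *Dll4*, 86.3% were in the endothelium class, 13 reached no class and at most 2 fell in any other class.

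After endothelium, the next classes in order were extraembryonic mesoderm at 1.70 CPM (0 to 4.98 over 4 plates) and myeloid cells at 1.69 CPM, whose plates overlapped each other. *Dll4* had no read in paraxial mesoderm, definitive endoderm and axial mesendoderm, visceral endoderm, cardiac mesoderm, extraembryonic ectoderm and erythroid cells. In the 10 paraxial cells, a count of 0 allows up to 0.539 CPM. A non-coding gene, *Gm14207*, overlaps *Dll4* on the opposite strand and had 1373 reads in the whole table, and with the strand setting of the counting not stated its reads cannot be told apart from those of *Dll4*.

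*Dll3* (ENSMUSG00000003436, chr7:28293553-28302238, minus strand) encodes a divergent Delta protein that acts within the cell in the presomitic mesoderm. Its 9 nascent mesoderm plates ran from 70.3 CPM through 125.1 to 309.8 CPM, and its 7 endothelium plates from 0 through 0.0443 to 1.60 CPM, with no overlap. It was detected in 77.6% of nascent mesoderm cells (71.5 to 82.9) and 1.89% of endothelium cells (0.615 to 4.35). The order of classes began with paraxial mesoderm (190.4 CPM, 10 cells and no plate with 5), nascent mesoderm and caudal progenitors (85.7 CPM). Plates of nascent mesoderm and caudal progenitors overlapped, so these neighbours did not differ beyond their spread. Epiblast cells held a low level of 14.3 CPM, and myeloid, visceral endoderm and surface ectoderm cells had no read.

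*Dll1* (ENSMUSG00000014773, chr17:15367354-15376872, minus strand) encodes the main ligand of the presomitic mesoderm. Its pooled levels were 50.5 CPM in nascent mesoderm and 7.27 CPM in endothelium, but the plates overlapped. Nascent mesoderm plates ran from 2.44 CPM through 42.8 to 300.5 CPM and endothelium plates from 0 through 1.86 to 27.3 CPM.

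The 2 lowest nascent mesoderm plates were lane plates 3 and 4, at 2.44 and 5.16 CPM, and the 2 highest were lane plates 5 and 6, the former at 300.5 CPM. Over these 9 plates the SD of log2(CPM + 1) was 2.07 for *Dll1* and 0.73 for *Dll3*, whose highest plate was lane plate 4. Paraxial markers in the same cells summed to 202.5, 76.6, 357.7 and 341.7 CPM on lane plates 3 to 6, and epiblast markers to 86.4, 188.4, 631.2 and 545.6 CPM. Their part in the difference was not tested. The highest endothelium value was that of E8.5 plate 3, where 19.7% of 66 cells had *Dll1* against 0% to 7.14% on the other endothelium plates.

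Of the 350 cells with *Dll1* or *Dll4*, 8 had both, all in the endothelium class. Within endothelium that was 3.02% of cells, near the 3.76% given by the product of the shares of the 2 genes. Nascent mesoderm held 55.6% of the cells with *Dll1*, and erythroid and blood progenitor cells had no *Dll1* read at any depth.

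*Jag1* (ENSMUSG00000027276, chr2:137081456-137116644, minus strand) encodes a ligand of the Jagged family. It was highest in definitive endoderm and axial mesendoderm at 147.6 CPM, a class of 28 cells with only 1 plate of at least 5 cells, and stood between 26.4 and 45.3 CPM in myeloid, caudal, cardiac, extraembryonic, nascent and paraxial mesoderm cells. Nascent mesoderm had 31.3 CPM (plates 14.4 to 63.3) and endothelium 16.2 CPM (plates 0 to 46.1), and the plates overlapped. Within endothelium, *Jag1* was uneven, at 46.1 CPM on lane plate 2 and 0.214 CPM on E8.5 plate 6.

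**Figure D2:**
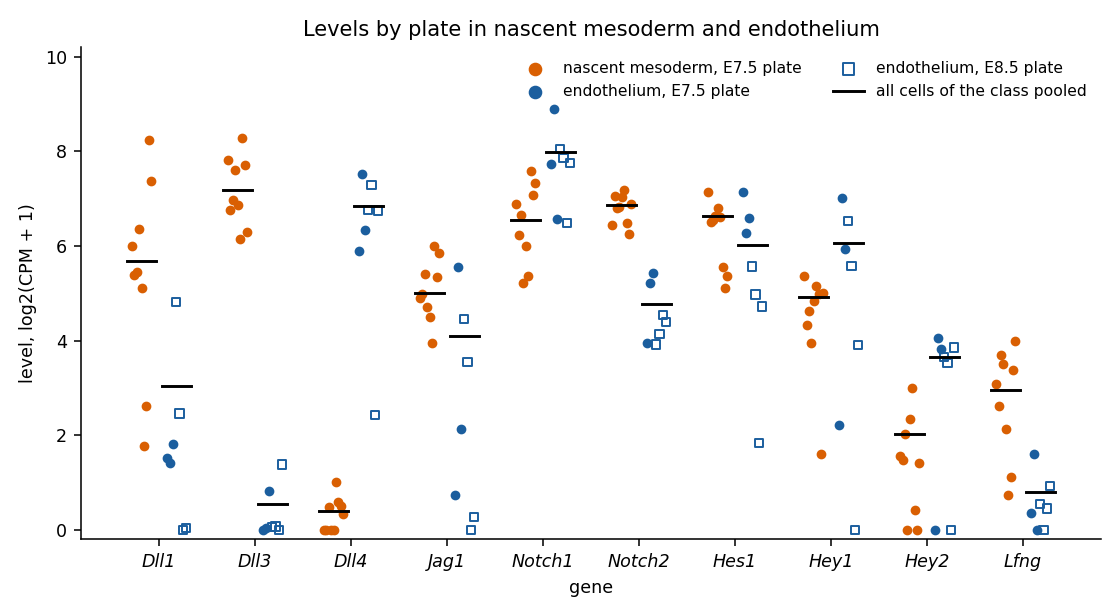
Level of each member on every plate with at least 5 cells of nascent mesoderm (orange) or endothelium (blue, filled at E7.5 and open squares at E8.5), as log2(CPM + 1) on the vertical axis. Black bars give the level of all cells of the class pooled. The 2 classes are fully apart for *Dll3*, *Dll4* and *Notch2*, and *Dll1* is scattered from 2.44 to 300.5 CPM over nascent mesoderm plates.

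The receptors differed in opposite directions. The pooled level of *Notch1* was higher in endothelium, with overlapping plates, and that of *Notch2* in nascent mesoderm, with plates apart. *Notch1* (ENSMUSG00000026923, chr2:26457903-26516663, minus strand) is the main receptor of endothelial cells and of the presomitic mesoderm. It stood at 252.6 CPM in endothelium (plates 88.7 to 476.6, median 213.9) and 92.2 CPM in nascent mesoderm (plates 36.4 to 191.4, median 99.9). The plates overlapped, with endothelium lowest on E8.5 plate 5 (88.7 CPM) and lane plate 3 (93.8 CPM). It was detected in 91.7% of endothelium cells (87.7 to 94.7) and 70.9% of nascent mesoderm cells (64.4 to 76.7).

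Small classes also carried *Notch1*, paraxial mesoderm at 278.4 CPM and myeloid cells at 201.5 CPM. It was low in blood progenitors (3.55 CPM) and erythroid cells (0.0494 CPM), near the end of its order. Non-coding genes overlap it on the opposite strand (0610009E02Rik and *Gm13568*), and their reads cannot be told apart from its own.

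*Notch2* (ENSMUSG00000027878, chr3:98013527-98150361, plus strand) was the most widely detected receptor. In nascent mesoderm its pooled level had a 95% Poisson interval of 113.6 to 116.5 CPM, with plates between 75.6 and 143.6 CPM, and in endothelium it stood at 26.3 CPM, with plates between 14.1 and 42.1 CPM, and the plates did not overlap. It was seen in 95.96% of nascent mesoderm cells and 41.5% of endothelium cells (35.5 to 47.7). Extraembryonic mesoderm was highest at 149.7 CPM (125.6 to 262.4 over 4 plates), overlapping nascent mesoderm. Erythroid cells had 4.72 CPM.

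*Lfng* (ENSMUSG00000029570, chr5:140607320-140615545, plus strand) encodes the fringe enzyme that adds a sugar to Notch and changes its response to ligands. It was low in most classes, and paraxial mesoderm led at 50.6 CPM, followed by caudal progenitors at 13.5 CPM and nascent mesoderm at 6.79 CPM (plates 0.660 to 14.9). Endothelium held 0.747 CPM (plates 0 to 2.04), and with neither class at 10 CPM no call was made for it. *Lfng* was seen in 24.2% of nascent mesoderm cells (18.8 to 30.4) and 4.15% of endothelium cells (2.09 to 7.31). On lane plates 3 and 4 nascent mesoderm held 0.660 and 1.17 CPM, the same plates on which *Dll1* was lowest.

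The targets, basic helix-loop-helix repressors, were less divided between the classes than the Delta ligands. *Hes1* (ENSMUSG00000022528, chr16:30064384-30067796, plus strand) was read in nearly every class, at 98.8 CPM in nascent mesoderm (plates 33.5 to 139.6) and 64.2 CPM in endothelium (plates 2.56 to 139.9). *Hey1* (ENSMUSG00000040289, chr3:8663359-8667256, minus strand) stood at 65.5 CPM in endothelium (plates 0 to 127.7) and 29.5 CPM in nascent mesoderm (plates 2.04 to 40.1). *Hey2* (ENSMUSG00000019789, chr10:30832359-30842801, minus strand) stood at 11.6 CPM in endothelium (plates 0 to 15.7) and 3.09 CPM in nascent mesoderm (plates 0 to 7.03). For all 3 targets the plates overlapped. The higher pooled level of *Hey1* in endothelium came from fewer cells: 34.7% of endothelium cells had a read (29 to 40.8) against 47.98% of nascent mesoderm cells (41.3 to 54.8).

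By pooled reads, *Hes1* was highest in definitive endoderm and axial mesendoderm (117.3 CPM) and *Hey1* in paraxial mesoderm (88.01 CPM). The paraxial class had 10 cells, and 3 of them had a *Hey1* read after thinning. By the mean of single cells *Hey1* stood at 52.6 CPM there and 64.8 CPM in endothelium. *Hey2*, known for its role in the heart ventricle, had no clear first class, with 13.1 CPM in cardiac mesoderm, 12.99 in extraembryonic mesoderm, 11.8 in paraxial mesoderm and 11.6 in endothelium. By the mean of single cells its order was extraembryonic mesoderm (15.2 CPM), endothelium (14.4) and cardiac mesoderm (12.7). Among endothelium plates, lane plate 1 (14 cells) held 139.9 CPM of *Hes1* but 3.67 CPM of *Hey1* and no read of *Hey2*, and E8.5 plate 5 (5 cells) had no read of *Hey1* or *Hey2*. These 2 plates had the highest blood progenitor sums, 490.8 and 1106 CPM, whose part was not tested.

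Levels of different genes can be set side by side per kilobase of exon. In nascent mesoderm, *Dll3* (50.8 CPM per kb) and *Hes1* (48.5) led, ahead of *Dll1* (11.96), *Notch2* (10.7), *Hey1* (9.02) and *Notch1* (6.48). Endothelium had a different order, with *Hes1* (31.5 CPM per kb) and *Dll4* (29.8) first, followed by *Hey1* (20.1) and *Notch1* (17.8). *Dll4* was thus the most abundant of the 4 ligands in endothelium per length, at 29.8 against 2.78 CPM per kb for *Jag1* and 1.72 for *Dll1*.

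The direct comparison of endothelium with nascent mesoderm asked which members differ between early mesoderm and vessel cells. A gene was called where the pooled levels (1 CPM added) differed by at least 1 on the log2 scale, either class held at least 10 CPM and the plates did not overlap. Among 9815 genes at 10 CPM, 6.05% were called higher in endothelium and 3.78% lower. Of the 10 members, 9 reached 10 CPM, and 1 was called higher (*Dll4*) and 2 lower (*Dll3* and *Notch2*). Animals are named for embryos 1, 2, 4 and 5 among the nascent mesoderm plates and for none of the endothelium plates. The comparison is therefore a description and not a test. All but 1 of the nascent mesoderm cells came from E7.5, so stage and any difference in assay between the stages also enter it.

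As log2 ratios of endothelium over nascent mesoderm, *Dll4* stood at 6.45, *Hey2* at 1.63, *Notch1* at 1.45 and *Hey1* at 1.13. On the other side were *Hes1* at -0.61, *Jag1* at -0.91, *Notch2* at -2.09, *Lfng* at -2.16, *Dll1* at -2.64 and *Dll3* at -6.65. The standard deviation between plates of a class was 1.24 for *Dll4*, 0.64 for *Dll3* and 0.48 for *Notch2*, all smaller than their ratios. For *Hey1*, *Jag1* and *Hes1* it was 1.98, 1.61 and 1.34, larger than the ratio.

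Only lane plate 3 held at least 5 cells of both classes (18 endothelium and 26 nascent mesoderm cells), which allows a comparison within a plate. Here the ratio was 5.33 for *Dll4*, -5.35 for *Dll3*, -1.75 for *Notch2* and 1.20 for *Notch1*, so these 4 kept the direction they had over all plates. *Jag1* (-1.82), *Lfng* (-0.73), *Hey1* (0.79) and *Hey2* (0.82) also kept theirs. *Dll1* hardly differed, as it stood at 2.54 CPM in endothelium and 2.44 CPM in nascent mesoderm, a ratio of 0.04. *Hes1* was likewise at 96.2 and 96.5 CPM.

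**Figure D3:**
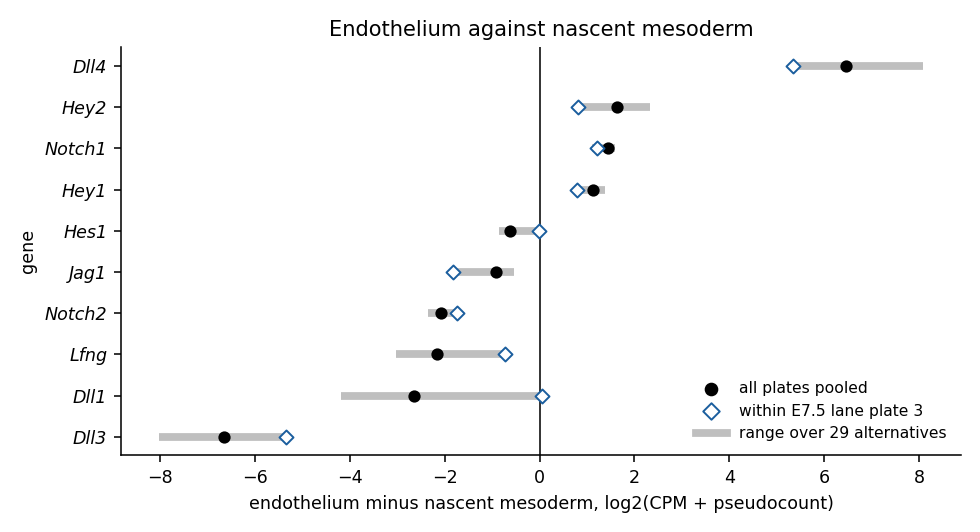
Log2 ratio of endothelium over nascent mesoderm for each member, from CPM plus a pseudocount. Black points pool all plates, diamonds use lane plate 3 alone (18 and 26 cells) and grey bars span 29 alternative settings. *Dll4* (6.45) and *Dll3* (-6.65) lie far from 0 on either side in every setting, and *Dll1* falls from -2.64 to 0.04 within lane plate 3.

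The rest of the pathway was followed through a list of 37 further genes, of which 29 reached 10 CPM in either class. Of these, 1 was called higher in endothelium (*Notch4*) and 1 lower (*Rbpj*), beside 6.05% and 3.78% of all genes. *Notch4*, a receptor of endothelial cells, stood at 43.2 CPM in endothelium (plates 10.3 to 74.8) and 2.07 CPM in nascent mesoderm (plates 0.167 to 6.13). *Rbpj*, the DNA-binding partner of the cut receptor, was at 14.9 CPM in endothelium (plates 10.6 to 19.2) and 32.7 CPM in nascent mesoderm (plates 24.2 to 51.1). The median log2 ratio of the 29 genes was 0.25, and that of all genes was -0.06.

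Values for the other ligands, receptors and targets of the list overlapped between the classes. The ligand *Jag2* was at 10.1 and 0.543 CPM in endothelium and nascent mesoderm, the non-canonical ligand *Dlk1* at 19.5 and 5.99 CPM and the receptor *Notch3* at 12.1 and 32.8 CPM. The fringe gene *Mfng*, singled out after its values were seen, stood at 72.6 CPM in endothelium and 0.0572 CPM in nascent mesoderm, the reverse of *Lfng*, with plates between 0.735 and 252.4 CPM and between 0 and 3.27 CPM. Among targets, *Hes6* was at 46.3 and 33.03 CPM, *Nrarp* at 3.57 and 1.88 CPM, *Hes7* at 0.624 and 2.57 CPM, *Hes5* and *Dtx1* were under 1 CPM in both classes, and *Heyl* had no read in either.

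Co-detection of members in single cells was then described. In endothelium, *Hey1* was read in 48.5% of cells with *Dll4* and in 21.1% of cells without. The same direction was seen on each of the 4 plates with at least 20 endothelium cells, with shares of 57.5% against 25% on lane plate 2 and 38.5% against 11.1% on E8.5 plate 6. *Hey2* gave 25.8% and 22.6%, with the direction on 2 of 4 plates. Cells with *Dll4* had a median of 719617 reads before thinning and those without 569025, and the part of depth was not tested.

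In nascent mesoderm, *Dll3* was read in 92.1% of cells with *Dll1* and in 62.4% of cells without, and *Notch1* in 85.1% and 55.96%. Both differences had the same direction on 5 of 5 plates with at least 20 cells. *Lfng* was read in 35.1% of cells with *Dll1* and 12.8% without, with this direction on 4 of 5 plates. *Hes1* was read in 78.9% of cells with *Dll1* and 90.8% without, and was lower with *Dll1* on all of these plates but lane plate 3 (100% against 86.96%, with 3 cells that had *Dll1*). The gap was widest on lane plate 6 (44.4% and 88.9%) and small in embryos 1 (89.5% and 95%) and 2 (91.7% and 94.1%). These cells share plates and libraries, and the shares are descriptions.

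The genes most like each member were sought over 51 combinations of plate and class with at least 5 cells, by Pearson's r of log2(CPM + 1) among 13512 genes. The points share plates and classes, so r describes these units only. *Dll4* resembled *Gpr182* (r = 0.94), *Itga2* (0.93) and *Nos3* (0.93), the last encoding endothelial nitric oxide synthase. *Dll3* resembled *T* (0.87), *Mixl1* (0.84) and *Pcdh19* (0.83). All of these were used to assign cells, *T* and *Mixl1* as markers of the nascent mesoderm class and *Pcdh19* of the paraxial class. *Dll1* and *Lfng* shared the same 3 genes, *Tbx6*, *S1pr5* and *Msgn1*, with r from 0.75 to 0.80 and from 0.76 to 0.81. *Tbx6* and *Msgn1* are transcription factors of the presomitic mesoderm, and *Tbx6* is also a marker of the paraxial class.

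For the receptors, *Notch1* was nearest to *Akna* (0.80), *Rasgrp3* (0.74) and *Sorbs3* (0.73), and *Notch2* to *Tmeff1* (0.82), *Basp1* (0.82) and *Cthrc1* (0.82). *Hes1* was nearest to *Spred1* (0.76), *Ktn1* (0.76) and *Trim71* (0.72), *Hey2* to *Plagl1* (0.79), *Cdkl1* (0.74) and *Sparcl1* (0.72), and *Jag1* to *Smarce1* (0.72), *Cdk2ap1* (0.71) and *Dpysl2* (0.70). *Hey1* had the lowest best match, *B3gnt5* (0.65), followed by *Pgghg* (0.64) and *H60b* (0.64).

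A replicated test was possible for the step from epiblast to nascent mesoderm, since the 4 named embryos each held at least 7 cells of both classes (plot of levels within embryos). Reads were summed per embryo and class and tested with edgeR's quasi-likelihood test with embryo as a block, at 1% false discovery rate (FDR) and an absolute log2 fold change of at least 1. Of 16943 genes tested, 0.449% were called higher in nascent mesoderm and 0.673% lower. *Dll4* did not pass the filter on low counts, and of the 9 members tested 1 was called higher, *Dll3*, and 0 lower. Without the block, 3 members were called higher, *Dll1*, *Dll3* and *Notch1*, beside 1.13% of all genes higher and 1.55% lower. DESeq2 called 4 higher, *Lfng* in addition, and 0 lower, beside 3.46% of all genes higher and 4.06% lower. In the edgeR fit with the block, 7 members had an unadjusted p under 0.05, as did 18.8% of all genes.

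*Dll3* stood at 11.3, 13.5, 10.4 and 16.2 CPM in epiblast cells of embryos 1, 2, 4 and 5 and at 107.9, 125.1, 193.7 and 116.4 CPM in nascent mesoderm cells of the same embryos. Every nascent mesoderm value lay above every epiblast value, and *Dll3* rose by 3.36 on the log2 scale (SE 0.25, edgeR adjusted p = 0.00128). The SE here and below is approximate, as edgeR's test gives none. It is the absolute log2 fold change divided by the square root of the test's F statistic. Leaving out embryo 1 left its log2 fold change at 3.41 with an edgeR adjusted p of 0.0107, and it was then not called.

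*Dll1* was at 0.258, 0.0627, 0 and 2.79 CPM in epiblast and at 41.2, 42.8, 81.5 and 33.7 CPM in nascent mesoderm. The groups did not overlap, and its log2 fold change of 6.97 (SE 1.04) had an edgeR adjusted p of 0.0151, beyond the 1% threshold. As embryo 4 had no *Dll1* read in epiblast, the fitted fold depends on the prior count. *Notch1* was at 2.71, 10.4, 5.68 and 15.9 CPM in epiblast and at 73.8, 99.9, 36.4 and 62.6 CPM in nascent mesoderm, again without overlap, with a log2 fold change of 3.17 (SE 0.48, edgeR adjusted p = 0.0163). At 5% FDR both would be called with *Dll3*, beside 1.61% of all genes called higher and 2.08% lower.

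*Notch2* was at 61.4 to 87.98 CPM in epiblast and 110.4 to 133.1 CPM in nascent mesoderm, which do not overlap, with a log2 fold change of 0.66 (SE 0.12, edgeR adjusted p = 0.0309). *Hes1*, at 61.2 to 86.8 and 90.7 to 110.1 CPM, and *Lfng*, at 0 to 2.35 and 3.41 to 11.97 CPM, also had separate groups, with adjusted p of 0.185 and 0.156. *Jag1* (0.93, adjusted p = 0.298), *Hey1* (1.11, 0.206) and *Hey2* (4.67, 0.43) had overlapping groups. In 7 of the 9 members nascent mesoderm exceeded epiblast in all 4 embryos, which held for 14.3% of all genes tested (the reverse for 13.3%), and in 6 the 4 values of nascent mesoderm lay above all 4 of epiblast, against 6.76% of all genes. In 0 members they all lay below, which held for 6.60% of all genes.

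**Figure D4:**
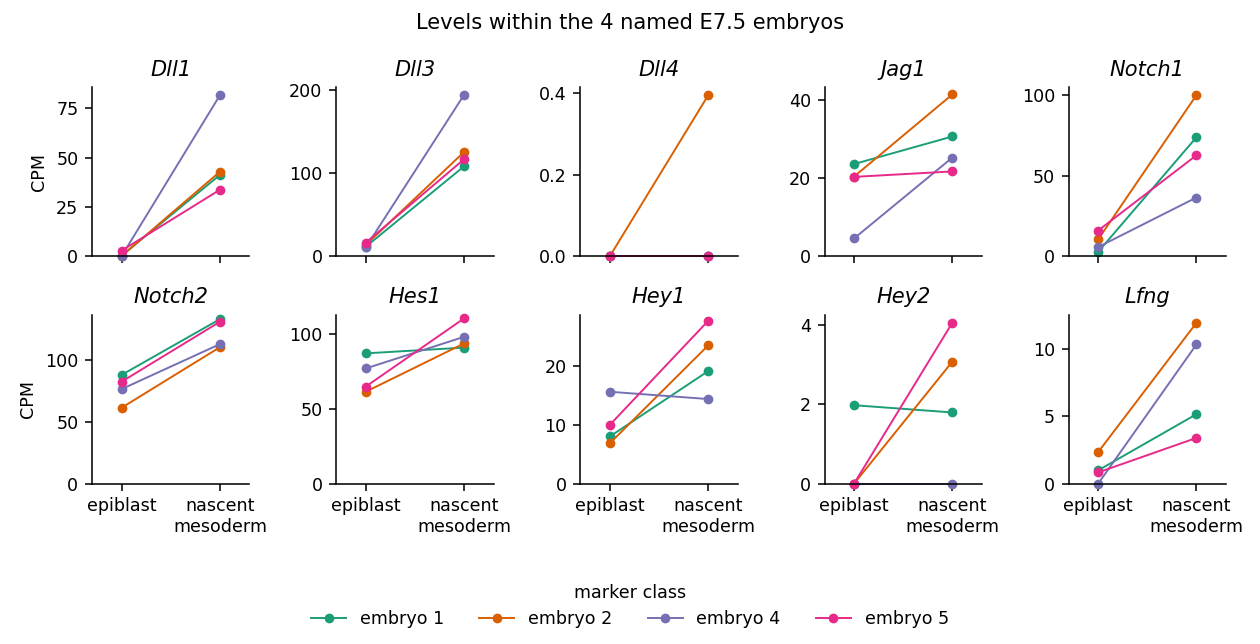
Level of each member in CPM (vertical axis, linear from 0, its own scale per gene) in epiblast and nascent mesoderm cells of embryos 1, 2, 4 and 5, with 1 line per embryo. *Dll3* climbs from 10.4 to 16.2 CPM to 107.9 to 193.7 CPM, *Dll1* and *Notch1* show no overlap between the classes, and *Dll4* stays at or under 0.394 CPM.

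Of the 37 other pathway genes, 34 were tested between these classes, and edgeR called 0 higher and 0 lower. Their median log2 fold change was -0.05, against 0.02 over all genes, and 6 had an unadjusted edgeR p under 0.05, a share near the 18.8% of all genes. DESeq2 called 1 higher and 3 lower, beside 3.46% and 4.06% of all genes. In all 4 embryos nascent mesoderm exceeded epiblast for 7 of the 34 and lay below it for 7, beside 14.3% and 13.3% of all genes. All values lay above for 1 and below for 3, beside 6.76% and 6.60% of all genes. These 3 were *Dtx1*, *Hes6* and *Mfng*, with edgeR adjusted p of 0.0151, 0.0632 and 0.0715. The target *Dtx1* stood at 13.8 to 29.8 CPM in epiblast and 0 to 0.504 CPM in nascent mesoderm.

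Finally, the stages were set side by side. Over all passing cells, 5 members had a higher pooled level at E8.5 and 5 a lower one. These counts stand without the matching share of all genes, so they say nothing particular to the members. The log2 ratio of E8.5 over E7.5 lay between -1.58 for *Dll3* and 0.69 for *Hey2*, and the plates of the 2 stages overlapped for all 10, as for all but 0.384% of genes higher and 1.41% lower at E8.5. The classes on the plates differ between stages, so the comparison was repeated in endothelium (98 cells on 3 plates with at least 5 cells at E7.5, and 4 such plates at E8.5). There *Dll4* was at 116.2 and 113.5 CPM, *Notch1* at 269.4 and 235.8 CPM and *Hey2* at 11.5 and 11.7 CPM at E7.5 and E8.5.

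Among the members, *Hes1* had plates apart, at 76.5 to 139.9 CPM on the E7.5 endothelium plates and 2.56 to 46.4 CPM on the E8.5 plates. The E8.5 plates include plate 5, with 5 endothelium cells and a blood progenitor sum of 1106 CPM. Of 9494 genes, 8.01% were likewise lower at E8.5 on every plate, and the share higher is not given. The other 9 members overlapped between the stages. *Hes1* alone apart is near the share of all genes, so it says nothing particular to the members. *Notch2* was at 35.6 and 16.9 CPM, and *Dll1* at 2.00 and 12.5 CPM, the latter drawn from E8.5 plate 3 at 27.3 CPM. Animal, sort gate, plate, stage and any difference in assay between the stages cannot be told apart here.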

How the data were processed

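Cells were sorted singly into plates and lysed, part of them after incubation with a GpC methylase, and poly-A RNA was captured and amplified by Smart-seq2. The authors aligned the reads with HISAT2 2.1.0 to GRCm38, counted them per gene with featureCounts and deposited a table of raw counts with no normalization. Strand and multi-mapping settings were not given in the sources used here. All 1824 columns matched a labelled sample. Cells with at least 100000 reads, at most 10% mitochondrial and at most 20% ribosomal protein gene reads were kept, and no doublet caller was run. Counts were pooled over the cells of a class and divided by their summed library size to give CPM (Python 3.11.15, numpy 2.4.6, pandas 2.3.3, scipy 1.17.1). Detection used cells thinned to 100000 reads. Plates needed 5 cells of a class. Intervals are exact 95% Poisson or Clopper-Pearson intervals, cover counting error only, and a count of 0 was bounded by 3 counts. Nascent mesoderm and epiblast were tested on counts summed per embryo with edgeR 4.0.16 (R 4.3.3), quasi-likelihood test, embryo as block and Benjamini-Hochberg adjustment, with DESeq2 1.42.0 as an alternative, and the script was tested on simulated data. Both classes of a number came from the same embryo, and their deviations from the class means correlated at 0.20, 0.19, 0.16 and 0.10 for embryos 1, 2, 4 and 5 over 8061 genes.

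The genes named are the 10 members, the ligands, receptors and targets among 37 other pathway genes, the class markers, and the 3 genes with the highest r for each member. Members, gene lists and tests were chosen with earlier results of these data known. Alternatives covered the marker and read minimums, other marker lists, pseudocount, scaling, filters, block, and leaving out each plate or embryo. Leaving out the 2% deepest cells, lane plate 3 alone and 5% FDR were added after seeing the data.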

Additional observations from a re-analysis of the deposited data

Results flagged for a closer look

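In 3 of 20 sets of 4 embryos, 1 embryo stood far from the others by Dixon's ratio at its 95% critical value, which chance gives in about 1 of 20 sets of untied values. For *Dll4* and *Hey2* the other embryos were all at 0, so any read gives the highest possible ratio and that chance does not apply. *Dll1* in epiblast cells was at 2.79 CPM in embryo 5, which had 7 such cells, and at 0.258, 0.0627 and 0 CPM in embryos 1, 2 and 4. *Dll4* in nascent mesoderm cells was at 0.394 CPM in embryo 2 and had no read in the other embryos. *Hey2* in epiblast cells was at 1.98 CPM in embryo 1 and had no read in the other embryos.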

How the results depend on the processing

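Between endothelium and nascent mesoderm, 1 member was called higher and 2 lower under every alternative but lane plate 3 alone, where no spread between plates enters the call and 2 were higher and 3 lower, beside 16% and 21.2% of all genes. With E7.5 cells only, 8.82% of all genes were called higher and 6.90% lower, and leaving out each plate gave 6.10% to 7.62% higher and 3.78% to 4.78% lower. Scaling by TMM factors moved the median log2 ratio of all genes from -0.06 to 0.08. The ratio of *Dll1* changed sign only within lane plate 3 (0.04), and with a pseudocount of 0.1 CPM *Dll4* stood at 8.08 and *Dll3* at -8.02. In the stage comparison 3 members were higher at E8.5 when only endothelium cells were used. Leaving out each plate gave 3 to 5, with 3 without E8.5 plate 3. In the embryo test 0.449% of genes were called higher and 0.673% lower, with 1 member higher. The fit with no replicate block called 1.13% and 1.55% with 3 members, DESeq2 3.46% and 4.06% with 4, no filter (33030 genes tested) 0.724% and 0.827% with 3, a marker minimum of 1 CPM 0.257% and 0.309% with 2, and 5% FDR 1.61% and 2.08% with 3. Leaving out each embryo gave 0.0921% to 0.317% higher, 0.120% to 0.267% lower and 0 to 2 members higher, every share under that of the 4 embryos. Without embryo 1, the shares were 0.0921% and 0.120% with 0 members, without embryo 2 0.197% and 0.247% with 1, without embryo 4 0.317% and 0.267% with 1, and without embryo 5 0.144% and 0.234% with 2. For these differences the cause was not tested. Epiblast values of embryos 4 and 5 rest on 8 and 7 cells.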
